A study of Bos taurus with 16 samples.

Results

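The granule antimicrobial transcripts described here are those of the bovine cathelicidins CATHL1 to CATHL6 and of BPI, PGLYRP1, LCN2 and AZU1. Members were the non-control probes of a custom bovine Agilent array whose gene name in the scanner files equals one of these 10 symbols. That gave 18 probes of 9 genes, out of 46615 probes, with 12 probes for the cathelicidins and 6 for BPI, PGLYRP1 and LCN2. No probe carried the name AZU1 or named its RefSeq transcript, so AZU1 is not analysed here. RNA came from Holstein cows at 45 to 55 days post-partum. Of these, 4 were healthy (numbered 841, 850, 877 and 883) and 4 had subclinical endometritis, or SCE (numbered 718, 833, 836 and 846). In SCE the uterus is inflamed although the cow shows no outward disease, so it is diagnosed from cells or tissue under the microscope. From each cow, circulating white blood cells (WBC, from stabilised whole blood) and an endometrial biopsy were each hybridised once to a one-colour array, which gave 16 arrays in 4 groups of 4. Each tissue filled a slide of its own, which means that effects of tissue and of slide cannot be told apart. The cows are the replicates. In the paper, the healthy cows on these arrays were evenly split between luteal and follicular phase, while the SCE cows were mostly luteal. The cycle phase could not be matched to single cows.

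Cathelicidins are stored as inactive precursors in neutrophil granules and are cut to release a short peptide that disrupts bacterial membranes. BPI is a granule protein that binds the lipopolysaccharide of Gram-negative bacteria, PGLYRP1 binds bacterial peptidoglycan, and LCN2 sequesters the siderophores with which bacteria collect iron. Most granule protein genes are transcribed while neutrophils mature in the bone marrow, and their mRNA declines before the cell enters the blood, whereas LCN2 can also be made by inflamed epithelium.

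Levels are log2 of the median spot signal after quantile normalization over the 16 arrays, without background subtraction. Probes not above local background had median levels between 5.64 and 5.90 on the single arrays, so differences near that level understate a change in transcript. On each array, between 64.7% and 79.8% of spots were well above background. The endometrial array of SCE cow 833 stood apart, with a median signal of 79.0 above background against 248 to 316 on the other 7 endometrial arrays. In that biopsy the neutrophil alarmin S100A8 was at 10.45 and the globin HBA at 16.53, against 6.31 to 8.16 and 14.40 to 15.16 in the other biopsies. Both are single members of longer marker lists. The mature neutrophil list averaged 9.43 there, against 8.85 to 9.53 in the other biopsies. The erythroid list averaged 7.97 against 7.24 to 7.40, although the globin HBB read 6.59, inside the others' 6.11 to 6.71. The endothelial list (5 genes) averaged 13.12, against 10.29 to 11.17. On each biopsy array all 7 measured stromal markers and all 11 epithelial markers were well above background, against 4 and 7 to 11 on the WBC arrays.

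Several sequences set what a probe can report. Each is 60 bases long, and those near the end of a transcript are shown by their last 30 bases, in lower case with the polyadenylation signal AATAAA in capitals where present. The first 3 end near the transcript's 3′ end.
CATHL2 A_73_P423416, last 30 bases: tgagtcagcatccaaaaAATAAAatcttgg
CATHL4 A_73_P045551, last 30 bases: gacagtgaaAATAAAttcttgtgaaaacgg
LCN2 A_73_101987, last 30 bases: tgcagccctgccttgcctgctaAATAAAta
The next pair are whole probes named for one cathelicidin whose annotation in the scanner files also lists the RefSeq transcript of a neighbour, CATHL3 for the first and CATHL5 for the second. The files give no means of splitting their signal between the 2 genes.
CATHL2 A_73_P063676: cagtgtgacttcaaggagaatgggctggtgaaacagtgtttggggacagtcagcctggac
CATHL6 A_73_P112816: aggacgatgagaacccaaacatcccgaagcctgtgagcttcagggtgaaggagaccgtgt
The last are probes on the strand opposite to the gene's other probe or probes. Whether these probes report the mRNA of the named gene was not tested.
LCN2 A_73_P165927: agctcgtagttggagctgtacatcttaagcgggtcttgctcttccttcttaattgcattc
CATHL4 A_73_P116311: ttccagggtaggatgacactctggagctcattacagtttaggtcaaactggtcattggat
The scanner files place the cathelicidin probes on chromosome 22, from chr22:52812282-52812341 (the opposite-strand CATHL1 A_73_P213377) to chr22:52905797-52906435 (CATHL5), with the brightest probes in the order CATHL4, CATHL1, CATHL3, CATHL2, CATHL6, CATHL5. That is also the order of the genes in RefSeq. The BPI probe A_73_113676 is placed at chr13:67791046-67791105 on the plus strand, and the LCN2 probes at chr11:102349007-102349066 on the plus strand and chr11:102345756-102345815 on the minus strand. The file headers name HGSC Btau_3.1 as the build while the submitters' design text names another, so these coordinates hold only within the files.

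In blood, 9 of the 18 probes were well above background on all 8 arrays, and in endometrium 3 were. In endometrium 9 probes were above background on no array. The 3 probes measured on all 16 arrays were CATHL6 A_73_116963 and both probes named LCN2. Of these, A_73_P165927 lies on the opposite strand and may not report LCN2 mRNA. The opposite-strand probes of CATHL1 (A_73_P213377) and CATHL4 (A_73_P116311) were above background on no array of either tissue. CATHL1 was at the limit of the array, with its brightest probe (A_73_120669) above background on 3 of 8 WBC arrays and on no endometrial array. The plot of the brightest probe of each gene shows the levels of all 9 genes by group.

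**Figure D1:**
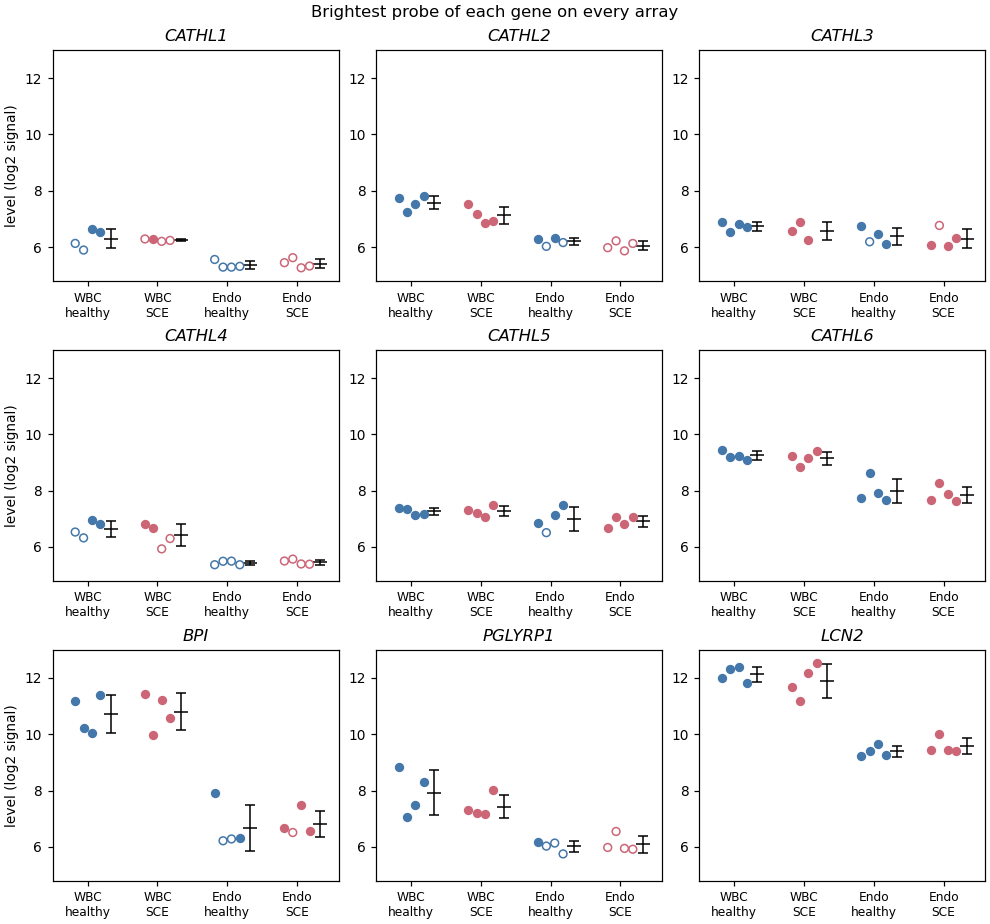
Level (log2 of normalized signal, y axis) of the brightest probe of each of 9 granule genes in the 4 groups (x axis), 1 point per cow; filled points were well above background and open points were not, and the bars are the mean ± SD of the 4 cows (3 in WBC SCE for CATHL3). BPI and LCN2 lie far higher in blood than in endometrium, and in each panel the healthy and SCE points of a tissue overlap.

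Between the tissues, 11 of the 18 probes were lower in endometrium than in WBC and 0 were higher (limma TREAT against a 1.2-fold threshold, adjusted p at most 0.05 over all probes), beside 31.2% of all probes lower and 22.7% higher. The 11 probes covered 7 of the 9 genes, all but CATHL3 and CATHL5. For 9 of the 18 probes every biopsy lay below every WBC sample (21.6% of all probes). The median difference of the 18 probes was -0.82, against -0.16 over all probes. In healthy cows alone 11 probes were lower (26.8% of all probes) and in SCE cows alone 9 were (26%). How many neutrophils each sample held and how much RNA each cell gave cannot be told apart in bulk RNA. Normalizing each tissue separately moved the median of all probes from -0.16 to 0.35 and turned the split of all called probes from 14554 lower and 10557 higher to 5054 lower and 19223 higher. Under that scaling 7 member probes were lower and 0 were higher. Set against the median of all probes, 16 of 18 lay below it in the main normalization, and 16 or 17 did under each of the other 4 scalings.

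BPI, the lipopolysaccharide-binding protein, had the largest difference of the members. In WBC its probe A_73_113676 read 11.17, 10.21, 10.06 and 11.40 for the healthy cows numbered 841, 850, 877 and 883. The WBC of SCE cows numbered 718, 833, 836 and 846 read 11.44, 9.99, 11.20 and 10.58. The biopsies, in the same order, read 7.91, 6.22, 6.28 and 6.31 for healthy and 6.69, 6.51, 7.47 and 6.57 for SCE cows. All 8 biopsies were below all 8 blood samples, and the biopsies of healthy cow 841 and SCE cow 836 were the highest of their groups. The difference was -4.01 ± 0.30 (SE; adjusted p = 1.7e-08), and in single cows it ran from -3.26 to -5.09. The second BPI probe, A_73_P298991, was above background on all 8 WBC arrays and on no biopsy. Its WBC signal was at least 2.95-fold the endometrial level in healthy cows and at least 3.35-fold in SCE cows. Folds given as "at least" here and below hold within the main normalization only. With each tissue normalized separately, this probe differed by -1.11, CATHL2 A_73_P423416 by -0.61, CATHL4 A_73_P045551 by -0.72 and CATHL1 A_73_120669 by -0.57. PGLYRP1 A_73_121141 differed by -0.99 and A_73_P430106 by -0.31. All these pooled falls were smaller than in the main normalization, so the bounds do not extend to that scaling. The highest healthy biopsy of BPI A_73_P298991 was also that of cow 841, at 6.03. Its highest SCE biopsy was that of cow 833, at 6.18, while cow 836 read 5.52.

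LCN2, the siderophore-binding lipocalin, was the member best measured in endometrium. Its probe A_73_101987 read 11.99, 12.30, 12.38 and 11.84 in WBC of the healthy cows and 11.67, 11.17, 12.19 and 12.55 in WBC of the SCE cows, each in ascending order of cow number. The biopsies read 9.24, 9.42, 9.66 and 9.26 for healthy and 9.44, 10.02, 9.46 and 9.39 for SCE cows. The tissues did not overlap, and cow 833 was both the lowest in blood and the highest in endometrium. The difference between tissues was -2.52 ± 0.18 (SE; adjusted p = 1.12e-08). The opposite-strand probe A_73_P165927 read 12.01, 11.30, 11.45 and 11.26 in healthy WBC and 11.80, 10.52, 11.75 and 11.80 in SCE WBC. The biopsies read 9.36, 9.42, 9.62 and 9.36 for healthy and 9.04, 11.80, 9.37 and 9.31 for SCE cows. In 7 of 8 cows this probe was lower in endometrium, while in cow 833 the biopsy exceeded the blood by 1.28. Its difference was -1.83 ± 0.33 (SE; adjusted p = 0.000447) and lay at -2.30 without cow 833. Whether this opposite-strand signal comes from LCN2 mRNA was not tested. The erythroid marker list (8 genes) averaged 7.97 in the biopsy of cow 833 and 7.24 to 7.40 in the others. The part of that list in the reading of this probe was not tested.

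PGLYRP1, the peptidoglycan recognition protein, read 8.85, 7.06, 7.49 and 8.30 in WBC of healthy cows and 7.30, 7.21, 7.16 and 8.03 in WBC of SCE cows (A_73_121141). All 8 WBC arrays were above background, and the values spread over 1.79 log2 units. In endometrium it lay between 5.75 and 6.55 and was above background in healthy cow 841 only. The difference was -1.61 ± 0.22 (SE; adjusted p = 4.23e-05), and in SCE cows WBC was at least 2.51-fold above endometrium. The second probe, A_73_P430106, differed by -0.69 ± 0.08 (adjusted p = 0.000134) but was above background on 2 of 16 arrays. In the 4 healthy cows, where it was above background in 2 WBC samples, WBC was at least 1.89-fold above endometrium. With each tissue normalized separately its difference was -0.31 and not called, and that of the LCN2 opposite-strand probe was -0.91 (adjusted p = 0.0679).

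Among the cathelicidins, CATHL6 gave the clearest signal. Its probe A_73_116963 read 9.46, 9.20, 9.25 and 9.10 in healthy WBC and 9.22, 8.84, 9.15 and 9.39 in SCE WBC. The biopsies read 7.76, 8.63, 7.91 and 7.65 for healthy and 7.66, 8.26, 7.88 and 7.62 for SCE cows. The tissues did not overlap, with healthy cow 850 and SCE cow 833 the highest biopsies. The difference was -1.28 ± 0.15 (SE; adjusted p = 1.04e-05), but with each tissue normalized separately it was -0.35 and not called. The second CATHL6 probe, A_73_P112816, was far dimmer, at a mean of 5.99 in WBC and 5.65 in endometrium. It was above background on 1 of 16 arrays, and its difference of -0.34 was not called (adjusted p = 0.39). CATHL2 (A_73_P423416) read 7.73, 7.25, 7.54 and 7.80 in healthy WBC and 7.52, 7.18, 6.86 and 6.94 in SCE WBC, and lay between 5.86 and 6.34 in endometrium. Its difference was -1.23 ± 0.12 (SE; adjusted p = 1.45e-06), and in SCE cows, with no biopsy above background, WBC was at least 2.11-fold higher. Another CATHL2 probe, A_73_120001, differed by -0.54 ± 0.11 (adjusted p = 0.0288), and the call was lost with cow as a block (adjusted p = 0.058) and without cow 718, 841, 846 or 877 (adjusted p from 0.0675 to 0.107). The CATHL2 probe A_73_P063676 (-0.54, adjusted p = 0.0612) was called without cow 846 (adjusted p = 0.0247) or cow 850 (0.0179).

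CATHL4 (A_73_P045551) was above background on 4 of 8 WBC arrays and on no biopsy, and differed by -1.09 ± 0.13 (SE; adjusted p = 1.92e-05). WBC was at least 2.32-fold above endometrium in healthy cows and at least 1.95-fold in SCE cows, each with 2 of 4 WBC arrays above background. CATHL1 (A_73_120669) differed by -0.89 ± 0.11 (adjusted p = 7.73e-05), with all 8 biopsies below all 8 blood samples. WBC was at least 1.87-fold higher in healthy and 1.75-fold in SCE cows, with 2 and 1 of 4 WBC arrays above background. A further CATHL1 probe, A_73_P063651, differed by -0.76 (adjusted p = 0.0712). Without cow 846 the difference was -0.49 (adjusted p = 0.0719), and without cow 836 it was -0.87 (0.0471). It stood at 7.91 in WBC of SCE cow 846 and at 5.58 to 6.44 in the other 7 WBC samples. The brightest CATHL1 probe did not share that reading, since it was at 6.24 in the same sample.

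CATHL3 and CATHL5 were the only genes of the 9 with no probe called between the tissues. CATHL3 lay between 6.24 and 6.89 in WBC and between 6.03 and 6.77 in endometrium, above background on 8 and 6 of 8 arrays. Its difference was -0.32 (95% interval -0.63 to -0.00050; adjusted p = 0.514), with 1 WBC spot of SCE cow 836 left out as an outlier. CATHL5 lay between 7.07 and 7.47 in WBC and between 6.51 and 7.48 in endometrium, where healthy cow 883 was the highest. Its difference was -0.32 (95% interval -0.59 to -0.044; adjusted p = 0.486), which passed without the fold threshold (adjusted p = 0.0377). For both genes the sign turned when each tissue was normalized separately, to 0.26 and 0.41.

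**Figure D2:**
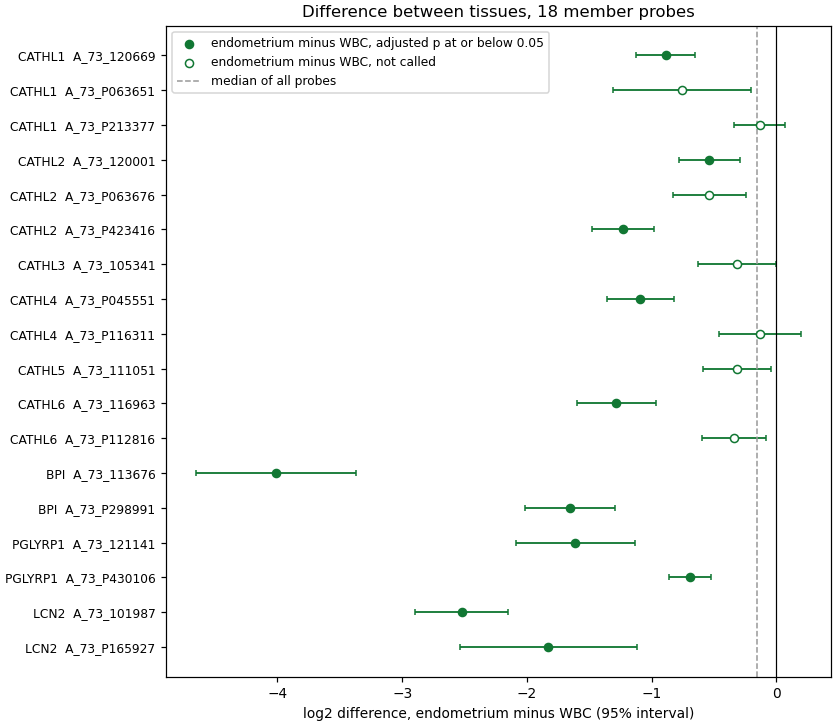
Difference between endometrium and WBC (log2, x axis) for the 18 member probes (y axis), with 95% intervals from the fit of 16 arrays; filled points had an adjusted p at or below 0.05. The 2 opposite-strand cathelicidin probes (CATHL1 A_73_P213377 and CATHL4 A_73_P116311) lie at -0.14 and -0.13, beside the dashed median of all probes at -0.16, and BPI A_73_113676 is the farthest from 0.

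Other granule genes showed both directions. Of 22 listed genes of azurophil, specific and gelatinase granules, 20 were measured, of which 11 were lower in endometrium and 4 were higher, with a median of -0.87. HP, the haemoglobin-binding haptoglobin, was above background in no healthy and 2 SCE biopsies. It was at least 108-fold higher in WBC of healthy cows. Its TREAT contrast of the tissues over both groups had an adjusted p of 1.94e-08. TCN1, a vitamin B12 carrier, was above background in 1 healthy and 3 SCE biopsies and differed by -5.62 ± 0.32. SLC11A1, a phagosomal metal transporter measured in all samples, differed by -5.25 ± 0.35. LTF, the iron-binding lactoferrin, was higher in endometrium by 4.69 ± 0.51, QPCT, a glutaminyl cyclase, by 2.00 ± 0.33, and PTX3, a soluble pattern recognition receptor, by 1.79 ± 0.46. DEFB, a beta-defensin, was above background on no WBC array. Its endometrial signal was at least 1.94-fold higher in healthy cows (3 of 4 biopsies above background) and at least 8.72-fold in SCE cows. For both groups together, the TREAT contrast of DEFB had an adjusted p of 0.000253. CEBPE, the transcription factor of terminal granulocyte maturation, was above background on no biopsy. It was at least 29.1-fold higher in WBC of healthy cows and 22.0-fold in WBC of SCE cows. For both groups together, the TREAT contrast of CEBPE had an adjusted p of 2.06e-10. Of 20 measured genes of mature neutrophils, 18 were lower in endometrium and 2 were higher, with a median of -4.46, and S100A9, above background in 2 healthy and 3 SCE biopsies, fell by 8.20 on the log2 scale. On the biopsies 14 to 19 of these 20 genes were above background. The 2 higher genes were ALPL and MME, the latter above background on no WBC array. Median ALPL was 13.42 in healthy and 13.83 in SCE biopsies, against 9.45 and 10.77 in WBC. In cow 833 ALPL was lower in the biopsy, at 9.86 against 11.15. The summed linear level of the 20 genes was 52590 to 79560 in the endometrium of both groups against 339000 to 512100 in WBC. That sum includes ALPL, at 15.05 in the biopsy with the highest sum (healthy cow 883). How far the sum follows neutrophil content was not tested. The part of these 20 genes in the differences of the members was not tested.

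**Figure D3:**
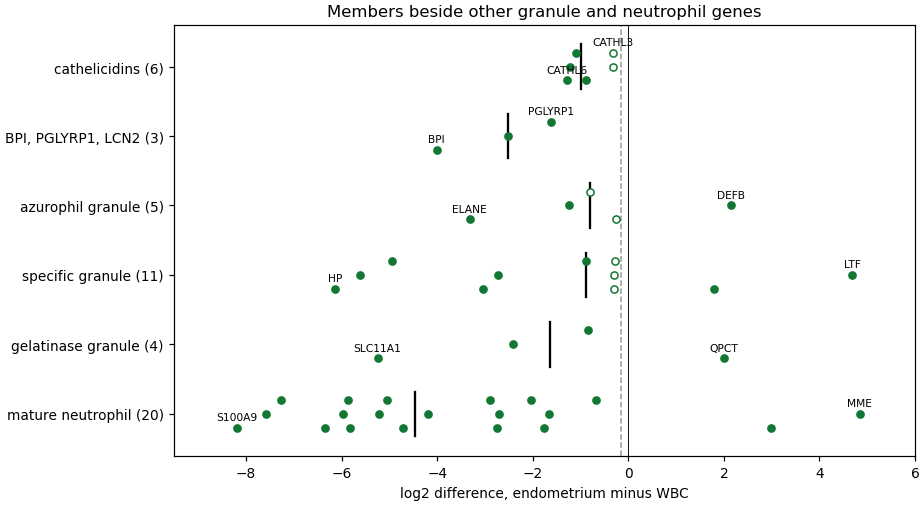
Difference between endometrium and WBC (log2, x axis) for the brightest probe of each member and of the genes of 4 lists (y axis, number of genes measured), with filled points for an adjusted p at or below 0.05, a black bar for each list's median and a dashed line for the median of all probes. Cathelicidins lie between -1.28 and -0.32, BPI at -4.01, mature neutrophil genes reach down to -8.20, and LTF is the granule gene highest in endometrium at 4.69.

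No member probe was called between SCE and healthy cows in either tissue. In endometrium 0 of 18 probes passed TREAT, adjusted or at an unadjusted p of 0.05, and in WBC 0 of 18 did, beside 0.451% and 0.122% of all probes at the unadjusted limit and 0% adjusted. Without the fold threshold, 0 member probes in either tissue passed the adjusted limit and 1 member probe in WBC passed the unadjusted one. Over all probes, 936 of 46554 in endometrium and 672 of 46591 in WBC passed that unadjusted limit. With the processed signal at the 75th percentile, 2 member probes in WBC passed TREAT at the unadjusted limit, beside 242 of 46591 probes. The median difference of the 18 probes was -0.024 in endometrium, with 9 above 0, and -0.16 in WBC, with 4 above 0. Over all probes the medians were -0.0047 and -0.0066. The mature neutrophil list averaged 8.85 to 9.27 in healthy and 9.08 to 9.53 in SCE biopsies, and its part in these values was not tested.

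The SCE differences of BPI were small beside the spread between cows. For A_73_113676 the difference was 0.13 in endometrium (95% interval -0.80 to 1.06) and 0.093 in WBC (-0.76 to 0.95). LCN2 (A_73_101987) differed by 0.19 in endometrium (-0.22 to 0.59), by 0.039 there without cow 833, and by -0.23 in WBC (-0.85 to 0.39), or 0.0096 without that cow. Its opposite-strand probe differed by 0.44 in endometrium (-0.84 to 1.72), and by -0.20 without cow 833. These intervals leave room for 2-fold changes of BPI in endometrium in one direction, and of the LCN2 opposite-strand probe.

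In WBC the largest SCE differences were those of PGLYRP1 and CATHL2. PGLYRP1 (A_73_121141) was at 7.43 ± 0.40 in SCE and 7.93 ± 0.80 in healthy cows (SD, n = 4 each), a difference of -0.50 (95% interval -1.32 to 0.32). Leaving out single cows moved it between -0.79 and -0.19, the last without healthy cow 841, where it was smaller than that of CATHL2. CATHL2 (A_73_P423416) was at 7.12 ± 0.30 and 7.58 ± 0.25, a difference of -0.46 (-0.87 to -0.043), with SCE cow 718 inside the healthy range (two-sided exact permutation p = 0.0571, where 4 against 4 cannot go below 0.0286). The CATHL2 probe A_73_P063676, which also lists the CATHL3 transcript, differed by -0.44 (-0.92 to 0.032). Neither passed TREAT, with unadjusted p of 0.163 and 0.212.

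The groups were free of overlap for 1 of 18 probes in endometrium (1.76% of all probes) and for 0 in WBC (1.38%). The probe was PGLYRP1 A_73_P430106, at 5.54, 5.59, 5.40 and 5.46 in healthy and 5.61, 5.75, 5.92 and 5.69 in SCE biopsies, which is not above background on any of them. In the test of whether the SCE effect differed between tissues, 0 probes passed the adjusted limit and 1 of 18 passed the unadjusted one (1.79% of all probes). It was the same PGLYRP1 probe, with a difference of 0.45 ± 0.16 (unadjusted p = 0.0125, adjusted p = 1).

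**Figure D4:**
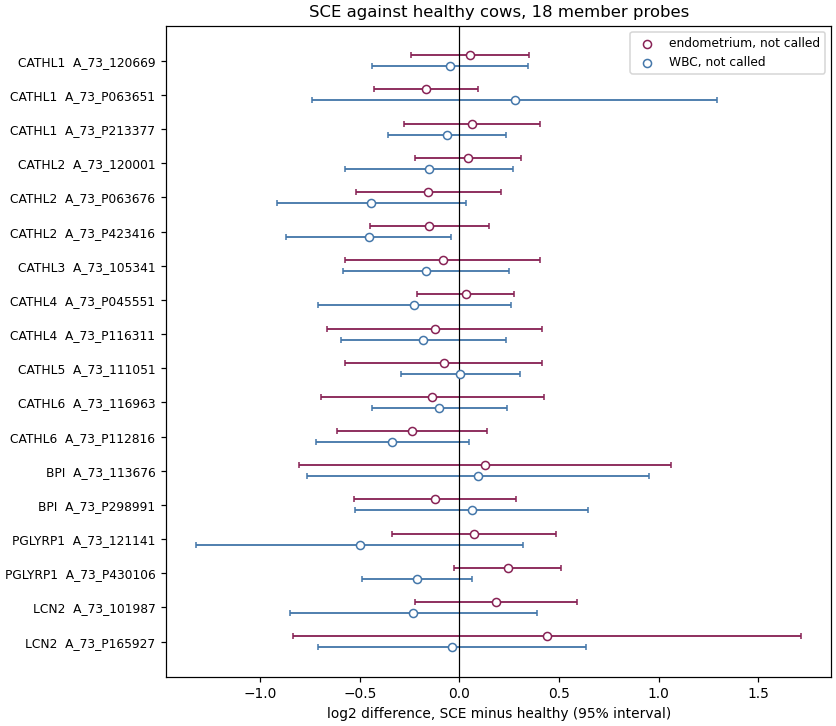
Difference between SCE and healthy cows (log2, x axis) for the 18 member probes (y axis) in endometrium (upper, purple) and WBC (lower, blue), with 95% intervals from the fit within each tissue of 4 against 4 cows. No probe was called, and the only interval that leaves out 0 is that of CATHL2 A_73_P423416 in WBC (-0.87 to -0.043).

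Of the other granule genes, 0 of 20 passed the adjusted limit in either tissue and 2 passed the unadjusted one in endometrium. LTF differed by 2.98 ± 0.95 and DEFB by 2.10 ± 0.69 (adjusted p = 1 for both). From the arrays, the paper lists LTF among the genes that differed with SCE in both tissues, in opposite directions. By quantitative PCR, it also reports an effect of cycle phase on endometrial LTF in healthy cows. The mix of phases differed between the groups, and its part in the LTF difference was not tested. LTF read 16.73, 16.71, 17.58 and 13.10 in SCE biopsies and 11.69 to 14.03 in healthy ones, so that SCE cow 846 lay within the healthy range. In the 3 SCE biopsies with LTF above the healthy range, LCN2 (A_73_101987) was at 9.44 in cow 718 and 9.46 in cow 836, inside the healthy range, and at 10.02 in cow 833, above it.

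Whether granule transcripts in tissue follow those in blood was asked over the 8 cows, with 1 pair of arrays per cow. For the 17 probes with a value on every array, whether or not above background, Pearson's r between the endometrium and the WBC level was above 0 for 8 probes (45.2% of all probes) and had a median of -0.12, against -0.063 over all probes. For the 3 of them well above background on all 16 arrays (CATHL6 A_73_116963 and both LCN2 probes), r was below 0 for each, with a median of -0.51, against -0.11 over all probes measured that well. With an exact permutation test over all 40320 pairings, 1 of the 17 had an unadjusted p at or below 0.05, beside 9.16% of all probes. No probe on the array passed after adjustment over 45939 probes (smallest adjusted p = 0.388). The single probe was the opposite-strand probe named LCN2, A_73_P165927, with r = -0.86 (exact p = 0.0225, adjusted p = 0.486) and Spearman's rho = -0.60 (exact p = 0.132). Without cows 833 and 841, the pair farthest from the median blood level, its r was -0.55, and without cow 833 alone it was -0.43. The size of this r depended on cow 833, while its sign did not.

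BPI (A_73_113676) gave r = 0.49 (exact p = 0.253, adjusted p = 0.734) and rho = 0.48 (exact p = 0.243), and r = 0.38 without cows 833 and 877. Cows 718 and 883 had the highest BPI in blood, at 11.44 and 11.40, and biopsies at 6.69 and 6.31, while the biopsies highest in BPI, of cows 841 and 836, came from cows at 11.17 and 11.20 in blood. LCN2 A_73_101987 gave r = -0.51 (exact p = 0.202, adjusted p = 0.698) and rho = -0.17 (exact p = 0.703). Its r turned to 0.57 without cows 833 and 846.

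CATHL2 (A_73_P423416) had r = 0.53 (exact p = 0.173, adjusted p = 0.674) and rho = 0.57 (exact p = 0.151), falling to 0.25 without cows 836 and 846. CATHL6 had r = -0.42 (exact p = 0.294, adjusted p = 0.763) and rho = -0.33 (exact p = 0.428), and -0.16 without cows 833 and 841. CATHL5 had r = -0.27 (exact p = 0.529, adjusted p = 0.879) and rho = -0.21 (exact p = 0.619). CATHL3, over the 7 cows with both values, had r = 0.59 (exact p = 0.165) and rho = 0.68 (exact p = 0.11), and 0.92 over the 5 cows left without those farthest from the median. PGLYRP1 had r = -0.21 (exact p = 0.605, adjusted p = 0.906) and rho = -0.14 (exact p = 0.752).

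Taking deviations from the mean of each status, and pairing cows only within their status (576 pairings), none of the 17 probes had an exact p at or below 0.05, beside 7.34% of all probes. BPI kept r = 0.49 (exact p = 0.321) and the opposite-strand LCN2 probe had r = -0.88 (exact p = 0.122). Cows 841, 850, 718 and 833 lay in one row of the slide and the other 4 in the next. With deviations from the mean of each row, again 0 of the 17 had an exact p at or below 0.05 (7.57% of all probes), with r = 0.51 for BPI (exact p = 0.286) and -0.85 for the opposite-strand LCN2 probe (exact p = 0.0642). The r of CATHL1 (A_73_120669) turned from -0.12 to 0.50 (exact p = 0.215).

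**Figure D5:**
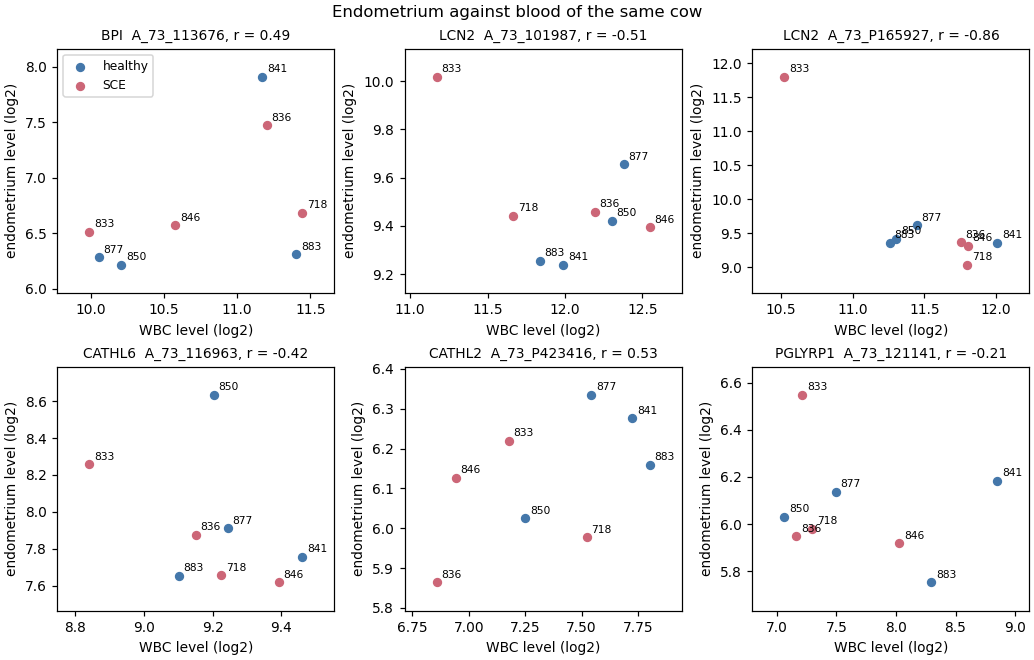
Endometrium level against WBC level (both log2) of the same cow for 6 member probes, with the cow number beside each point, healthy cows in blue and SCE cows in red; r is Pearson's over 8 cows. Cow 833 lies alone at low blood and high endometrial signal in the panels of the 2 probes named LCN2. One of these, A_73_P165927, lies on the opposite strand. BPI is highest in the biopsies of cows 841 and 836.

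Probes of 1 gene did not always move together, which bounds how far a single probe can be read. Over the 8 WBC samples, the BPI probes correlated at r = 0.85 and rho = 0.83 (exact p = 0.0097 and 0.0154, unadjusted, among 11 pairs of probes in each of 2 tissues), and at 0.77 without the pair of cows farthest from the median. Both PGLYRP1 probes gave r = 0.82 and rho = 0.79 (exact p = 0.0111 and 0.0279), and 0.40 without the farthest pair of cows. The CATHL6 probes gave r = -0.13 and rho = -0.10 (exact p = 0.762 and 0.84), and one of them was above background on 1 array only. In endometrium, where one of the BPI probes was above background on no array, they gave r = 0.10 and rho = -0.26 (exact p = 0.836 and 0.536). The LCN2 probes, both above background on every biopsy, gave r = 0.88 and rho = 0.62 (exact p = 0.0263 and 0.115), and -0.32 without the pair of cows farthest from the median. Over all probe pairs of 1 gene name that were above background on all 8 arrays of a tissue, the median r was 0.57 in WBC and 0.81 in endometrium. Among the brightest probes of the 6 cathelicidins, the 15 pairwise r ranged from -0.69 to 0.77 in WBC (median 0.16) and from -0.48 to 0.78 in endometrium (median 0.17), given as a description.

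The probes most like the mean standardized profile of the 6 cathelicidins over the 8 arrays of a tissue were, in endometrium, those of PLA2G15 (r = 0.991), LOC493778 (0.979), EE333876 (0.976), MFGE8 (0.973) and GRAP (0.967), out of 15439 probes searched. In WBC they were those of ENSBTAT00000046304 (r = 0.938), TSPAN15 (0.932), ENSBTAT00000035715 (0.924), the unnamed probe A_73_P205317 (0.922) and ENSBTAT00000052995 (0.918), out of 11662. None of these 10 carried the name of a member or of a listed granule gene. Some carry only a transcript, clone or probe identifier, so which gene they report is not known here. In endometrium the profile was built mostly from probes at or near background.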

How the data were processed

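Agilent scanner files of 16 one-colour arrays (4 groups of 4) were used. Raw spot intensities were deposited as the authors' scanner output (Feature Extraction 10.10.1.1). A second deposited table holds their quantile-normalized intensities, and its rows match the scanner rows in order (r at least 0.99 on each array, column medians 231.469). Here, median signals of non-control spots were taken, outlier spots (190 to 465 per array) left out, log2 values quantile-normalized over 16 arrays and spots averaged per probe. A gene's level is that of its brightest probe over the 16 arrays. At most 1 spot per array was saturated. With 1 array per sample, the number of arrays limits the precision.

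The SCE contrast was fitted per tissue, and tissues were contrasted in a model of 4 groups. Fits used R 4.3.3 and limma 3.58.1 (treat at 1.2-fold after lmFit, eBayes for the difference of effects; Benjamini-Hochberg over all probes at 0.05). Standard errors and 95% intervals come from these fits. A lower bound on a fold ("at least") starts from the brighter group's mean. It is set against, per array, the higher of the dim probe's own signal and the lowest signal of any probe well above background. Such a bound holds for the main normalization and does not cover the other scalings. It equals the measured fold where the dim probe's own signal was the higher on every array, and does not cover the spread between cows. Correlations used exact permutation over all pairings of cows (Python 3.11.15, numpy 2.4.6, scipy 1.17.1). Named genes were all member probes, the 3 other granule genes with the largest difference between tissues, and the 5 best matches per tissue to the cathelicidin profile. Other list genes named, among them those of mature neutrophils, were chosen after their values were seen. Members and lists were chosen with earlier results of these data known.

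The cow links both arrays, since they come from the same animal; over all probes, both arrays of a cow deviated from their group means with r from -0.243 to 0.108. Normalization, background correction, the authors' values, a filter on dim probes, the variance prior, the fold threshold, slide row and cow as blocks, all 16 arrays in 1 fit, and leaving out each cow were tried as alternatives. Methods were tested on simulated data. The lists of other cell types were used as measured context only. No sequence or genome build was given besides the probes in the files, and gene order was checked against RefSeq ARS-UCD2.0.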

Additional observations from a re-analysis of the deposited data

Results flagged for a closer look

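Of 71 groups of 4 values (18 probes in 4 groups, without CATHL3 in WBC of SCE cows), 9 held a value far from the other 3, where chance alone gives about 1 group in 20. In the biopsy of SCE cow 833, 4 probes stood above the other SCE biopsies: LCN2 A_73_101987 at 10.02 (others 9.39 to 9.46), LCN2 A_73_P165927 at 11.80 (9.04 to 9.37), BPI A_73_P298991 at 6.18 (5.52 to 5.58) and PGLYRP1 A_73_121141 at 6.55 (5.92 to 5.98). The last 2 were not above background. In WBC of the same cow, LCN2 A_73_P165927 was low at 10.52 (11.75 to 11.80).

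In the biopsy of healthy cow 841, BPI A_73_113676 stood at 7.91 (6.22 to 6.31) and CATHL1 A_73_120669 at 5.56 (5.29 to 5.31, none above background). In WBC, CATHL1 A_73_P063651 stood at 6.44 in healthy cow 883 (5.83 to 5.91) and PGLYRP1 A_73_121141 at 8.03 in SCE cow 846 (7.16 to 7.30). The cause of each value was not tested.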

How the results depend on the processing

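The count of member probes called stayed at 0 for SCE against healthy cows in both tissues, for the difference of that effect between tissues and for the relation of tissue to blood under each alternative run. Between tissues the count of 11 stayed at 8 to 13 except for 7 with each tissue normalized separately and 15 without the fold threshold (within 1.5 times the main count), was 10 with cow as a block, and 10 to 12 when each cow was left out. The 8 came from the filter on dim probes, which left 10 member probes to test. The cow block changed no call other than that of CATHL2 A_73_120001. Leaving out cow 846 alone gave 10 calls among all probes for the difference of the SCE effect, none of them a member.

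Signs turned for tissue differences only with each tissue normalized separately: CATHL1 A_73_P213377 (0.084), CATHL2 A_73_120001 (0.00060), CATHL3 (0.26), CATHL4 A_73_P116311 (0.068) and CATHL5 (0.41). SCE differences of CATHL5 turned with the processed signal at the 75th percentile (0.027 in endometrium, -0.0346 in WBC), and that of CATHL3 in WBC turned with the authors' values (0.056). When each cow was left out, SCE differences in endometrium ranged from -0.017 to 0.12 for CATHL1, -0.24 to 0.043 for CATHL3, -0.0032 to 0.057 for CATHL4, -0.24 to 0.086 for CATHL5, -0.27 to 0.078 for CATHL6, -0.091 to 0.54 for BPI, -0.077 to 0.13 for PGLYRP1 and -0.20 to 0.72 for LCN2 A_73_P165927. In WBC they ranged from -0.18 to 0.069 for CATHL1, -0.064 to 0.072 for CATHL5, -0.18 to 0.0034 for CATHL6, -0.12 to 0.36 for BPI, -0.45 to 0.0096 for LCN2 A_73_101987 and -0.15 to 0.28 for LCN2 A_73_P165927. None of these differences was called. The tissue-to-blood r of CATHL4 turned with the processed signal (-0.20) and with normexp (-0.18), that of PGLYRP1 with normexp (0.040), and that of CATHL1 with deviations from the mean of each slide row (0.50), a setting chosen after seeing the data. When each cow was left out, r ranged from -0.45 to 0.097 for CATHL1, -0.55 to 0.046 for PGLYRP1 and -0.66 to 0.43 for LCN2 A_73_101987, positive without cow 833. The cause of these turns was not tested.

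Probes near background, most cathelicidin probes in endometrium among them, compress differences, so small changes there were not detectable with 4 arrays per group. Whether separate slides or tissues set the differences between them cannot be told apart.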
